A study of Mus musculus with 49 samples.

Results

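Bladders of mice that had drunk arsenate at 2 ppm for 1 week were compared with bladders of mice that had drunk water without arsenate for the same week. The members are the 5 arrays whose titles name 2 ppm and 1 week and the 5 arrays whose titles name water and 1 week, 10 of the 49 arrays of the study. The whole study measured urinary bladders at 0, 0.5, 2, 10 and 50 ppm after 1 or 12 weeks. All mice were adult females of the C57Bl/J strain, drank freely, and were 76 days old at the 1-week harvest and 155 days old at the 12-week harvest. Arsenate is the pentavalent inorganic form of arsenic, and no genetic change or other agent is named for either group. Each array holds RNA of the bladder of a single mouse with no pooling, so the tests rest on the spread from mouse to mouse. The labels number the 2 ppm mice 11 and the water mice 3, each followed by the mouse's own number. The meaning of the shared first number is not stated, and whatever it stands for cannot be told apart from the dose.

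Inorganic arsenic is taken up by phosphate carriers and aquaglyceroporins, reduced and methylated in the cell, and excreted in urine, so that the bladder lining is exposed from the lumen. The bladder wall holds a layered urothelium, a connective tissue rich in collagen, smooth muscle, vessels and resident immune cells. Arsenic is known in many tissues for stress responses through NRF2, a transcription factor for antioxidant enzymes, through metallothioneins, which bind metals, and through heat shock proteins. Resident macrophages and dendritic cells of the bladder carry class II molecules, which present peptides from outside the cell to helper T cells.

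Levels are given as log2(signal + 16), where the signal is the deposited intensity of a probe set on an array. The scale has a floor of 4, and a mean under 5 is called near the floor. The labelled tissue was checked against its markers: 17 of 17 markers of the superficial and intermediate urothelium passed the filter on dim genes, with a mean level of 13.29 at 2 ppm and 13.24 in water, and 14 smooth muscle markers had mean levels of 13.46 and 13.58. The RNA integrity number (RIN), which grades degradation and is best at high values, was 7.2 on replicates 3, 4 and 5 of 2 ppm, 9.7 and 9.5 on replicates 1 and 2 of 2 ppm, and 8.8 to 9.7 on the 5 water arrays. The labels do not say whether the identical 7.2 was measured on each of the 3 samples or entered once for all of them, and values split or adjusted by RIN carry this doubt. The group means of 8.16 and 9.28 differed with p = 0.1587 (exact permutation test, two-sided, 5 arrays against 5, adjusted p = 0.3703 over 7 measures). The smallest p that this design allows is 0.007937. The 3′ to 5′ ratio of the Gapdh control probe sets averaged -0.42 at 2 ppm and -0.36 in water as a log2 value (two-sided exact permutation p = 0.02381, adjusted p = 0.1667). The other 5 measures, among them the array median and the spiked controls, had adjusted p-values of 0.2222 to 0.9524. The ultraviolet absorbance of the RNA, as labelled, was 7.19 for replicate 2 of 2 ppm and 1.12 to 2.30 for the 9 other samples.

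No gene separated the bladders of 2 ppm from those of water at the threshold. Of 13907 genes tested, 0 were called at an adjusted p under 0.05 (limma with Benjamini-Hochberg adjustment, 0% called), and the smallest adjusted p was 0.2395. At an unadjusted p under 0.05 the count was 839 genes, 6.03% of those tested, with 462 lower (3.32%) and 377 higher (2.71%). Values of the 2 groups did not overlap for 134 genes that were lower at 2 ppm (0.964%) and for 93 genes that were higher (0.669%). Over the 34945 probe sets of a single gene, without a filter, 0 were called and 2160 (6.18%) had an unadjusted p under 0.05. The median difference of all genes was 0.00, and 50.9% lay above 0 and 49.1% below.

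The size of change that these arrays leave room for can be read from the intervals. The median standard error was 0.15 on the log2 scale, and the median absolute difference was 0.11. The 95% confidence interval of the difference lay wholly within a 2-fold change in either direction for 12869 genes (92.54%), and within a 1.5-fold change for 10060 genes (72.34%). These shares hold on the scale with the offset of 16, which understates differences of dim genes. It lay wholly beyond a 1.5-fold change for 3 genes, Matk, A830005F24Rik and Sstr5, all dim and lower at 2 ppm; Sstr5, a somatostatin receptor, was picked out after its value had been seen. Differences of more than 2-fold were estimated for 27 genes, of which 11 had a group mean near the floor.

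The 10 genes of smallest p among those lower at 2 ppm were Matk, Ephb3, Gadd45g, Cd74, H2-Eb1, Enc1, Slf2, Ppp1r3c, Pdgfrb and A830005F24Rik, with adjusted p-values of 0.2395 to 0.4697. Ephb3, a receptor tyrosine kinase for ephrins of class B, had levels of 9.52, 9.39, 9.51, 9.38 and 9.67 in the 2 ppm bladders and 9.91, 10.02, 10.04, 9.81 and 10.13 in the water bladders. All 5 arrays of 2 ppm lay below all 5 water arrays, and the difference was -0.49 ± 0.10 (SE, adjusted p = 0.2395). Gadd45g, a stress-induced regulator of growth arrest, had levels of 8.87, 9.36, 9.16, 9.52 and 9.49 in the 2 ppm bladders and 9.54, 9.87, 9.89, 10.11 and 10.64 in the water bladders. The groups did not overlap, the difference was -0.73 ± 0.16 (SE, adjusted p = 0.2395), and the highest level was that of water replicate 5. Slf2, which helps to bring a chromosome-repair complex to damaged DNA, ranged from 8.99 to 9.21 at 2 ppm and 9.38 to 9.84 in water, without overlap and with a difference of -0.50 ± 0.12 (SE, adjusted p = 0.3529). Enc1, a Kelch-domain adaptor protein, differed by -0.48 ± 0.11, and Ppp1r3c, which directs protein phosphatase to glycogen, by -0.50 ± 0.12. The groups overlapped in both. The 3 probe sets of Enc1 ran from -0.48 to -0.11, and the 2 of Ppp1r3c from -0.50 to -0.05. Matk, an inhibitory kinase of the SRC family kinases, averaged 4.66 ± 0.36 at 2 ppm and 6.10 ± 0.14 in water (SD, n = 5 each), a difference of -1.44 ± 0.29 (SE, adjusted p = 0.2395). Its level at 2 ppm was near the floor, its estimate was -2.54 with an offset of 1 and -0.67 with an offset of 64, and its 2 probe sets disagreed, at -1.44 and 0.28. A830005F24Rik, a transcript with no named function here, was also near the floor at 2 ppm and differed by -1.37 ± 0.34.

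The 10 genes of smallest p among those higher at 2 ppm were Mirg, Sec22c, Mlkl, Atp2a1, Ksr2, Gmnn, Mcm6, Cdh15, Alg8 and Fv1, with adjusted p-values of 0.4697 to 0.6062. Mirg, a noncoding RNA of an imprinted locus that hosts many microRNAs, had levels of 8.42, 8.38, 8.22, 8.33 and 8.33 in the 2 ppm bladders and 8.22, 7.82, 7.61, 7.59 and 7.63 in the water bladders. Replicate 1 of water reached the lowest arrays of 2 ppm, and the difference was 0.56 ± 0.14 (SE, adjusted p = 0.4697). Sec22c, which acts in transport between the endoplasmic reticulum and the Golgi, ranged from 7.97 to 8.34 at 2 ppm and 7.38 to 7.76 in water, with no overlap and a difference of 0.67 ± 0.17 (SE, adjusted p = 0.4697). Its second probe set differed by 0.02. Mlkl, the pore-forming effector of necroptosis, had levels of 8.03, 8.12, 8.55, 8.24 and 8.22 in the 2 ppm bladders and 7.81, 7.46, 7.64, 7.68 and 7.84 in the water bladders. All 5 levels at 2 ppm exceeded all 5 in water, and the difference was 0.54 ± 0.14 (SE, adjusted p = 0.4697). Atp2a1, the calcium pump of fast skeletal muscle, differed by 0.95 ± 0.24, Cdh15, a cadherin of muscle precursor cells, by 0.93 ± 0.25, and Ksr2, a scaffold of the RAF kinase pathway, by 1.01 ± 0.26. Of 9 skeletal muscle markers measured, 6 lay above 0 and 3 below, with a median of 0.11. The groups did not overlap for Atp2a1 and overlapped for Cdh15 and Ksr2. Alg8, a glucosyltransferase of N-glycan assembly, differed by 0.34 ± 0.10, and Fv1, a mouse gene that restricts retroviruses, by 1.23 ± 0.36, with a mean level near the floor in water.

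Cd74 and H2-Eb1 belong to the class II pathway, and 12 genes of that pathway were gathered after these values had been seen, of which 10 were measured. Their shared direction is therefore a description. Cd74 is the invariant chain, which guides class II molecules to the endosome, H2-Aa, H2-Ab1 and H2-Eb1 encode the chains that hold the peptide, and H2-DMa encodes a chain of the molecule that loads it. The windows below are the 250 bases before the start sites of H2-Eb1 (chr17:34305617-34305866, plus strand) and H2-Aa (chr17:34287824-34288073, minus strand) in GRCm38.p6, from RefSeq, shown because both hold the Y box that class II promoters are known for. Capitals mark its letters, CTGATTGG, searched on both strands.
H2-Eb1: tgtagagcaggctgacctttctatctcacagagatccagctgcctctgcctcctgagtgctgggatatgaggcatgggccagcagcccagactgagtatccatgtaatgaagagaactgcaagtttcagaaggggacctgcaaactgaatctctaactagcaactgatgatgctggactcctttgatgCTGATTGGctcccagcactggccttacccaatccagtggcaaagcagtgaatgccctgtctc
H2-Aa: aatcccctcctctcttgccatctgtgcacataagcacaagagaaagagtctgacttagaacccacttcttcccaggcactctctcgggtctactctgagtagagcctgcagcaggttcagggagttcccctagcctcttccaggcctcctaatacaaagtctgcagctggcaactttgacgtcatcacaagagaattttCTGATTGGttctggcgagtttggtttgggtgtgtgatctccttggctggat
The Y box began 62 bases before the start in H2-Eb1 and 51 bases before it in H2-Aa, and 3.83% of all 32851 such windows hold these letters. The 2 windows of H2-DMa held no match, the letters had been chosen with these windows in view, and a match is a description of the letters and not of binding.

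The class II genes lay below water in the 2 ppm bladders, with a narrow range there and a wide one in water, and none passed the test. Cd74 had levels of 12.56, 12.48, 12.64, 12.49 and 12.70 in the 2 ppm bladders and 12.88, 13.23, 12.95, 13.58 and 12.84 in the water bladders. Every array of 2 ppm lay below every water array, and the difference was -0.52 ± 0.11 (SE, adjusted p = 0.2395), or 0.70-fold. H2-Eb1 had levels of 12.26, 12.14, 12.17, 12.15 and 12.17 in the 2 ppm bladders and 12.48, 12.87, 12.68, 13.32 and 12.38 in the water bladders. The groups did not overlap here either, and the difference was -0.57 ± 0.12 (SE, adjusted p = 0.2395). H2-Ab1 had levels of 11.51, 11.54, 11.53, 11.44 and 11.48 in the 2 ppm bladders and 12.01, 12.20, 11.93, 12.87 and 11.53 in the water bladders. Water replicate 5 lay within the range of 2 ppm, and the difference was -0.61 ± 0.17 (SE, adjusted p = 0.6062). H2-Aa ranged from 13.10 to 13.40 at 2 ppm and 13.35 to 14.11 in water and differed by -0.37 ± 0.10 (SE, adjusted p = 0.6062). H2-DMa ranged from 9.05 to 9.40 at 2 ppm and 9.31 to 10.06 in water and differed by -0.47 ± 0.14 (SE, adjusted p = 0.6062), while its dimmer probe set differed by 0.31. The other probe sets of H2-Aa and H2-Ab1 were all lower at 2 ppm, with differences between -0.54 and -0.24.

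**Figure D1:**
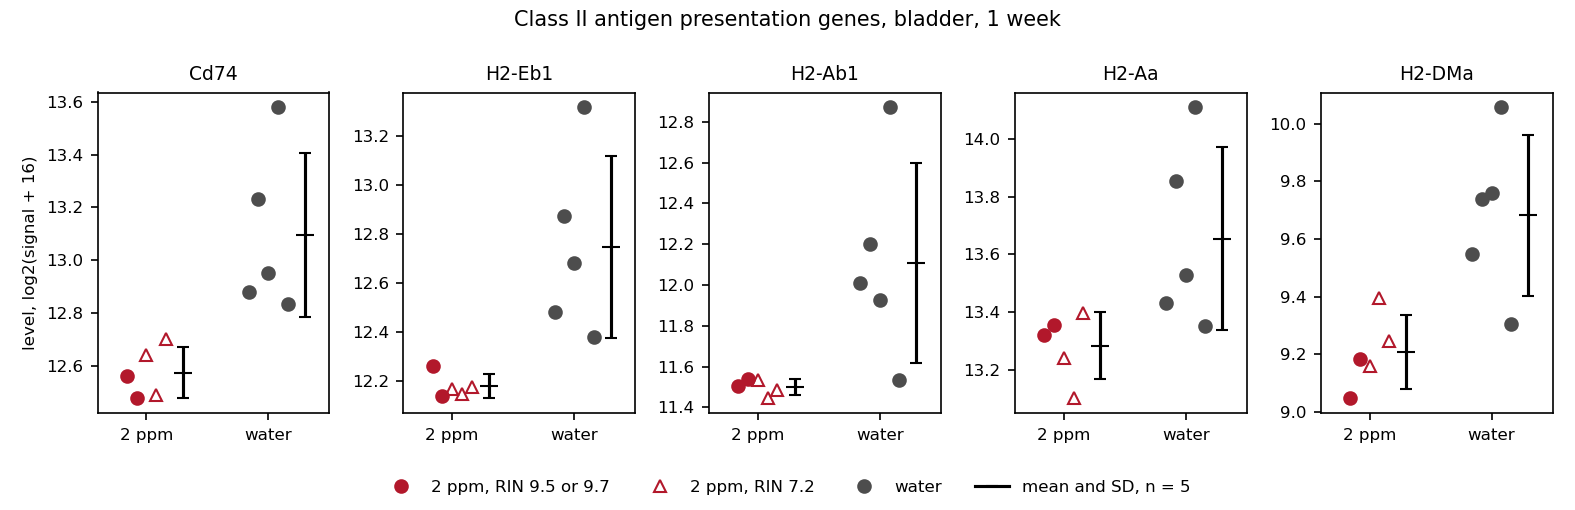
Levels of 5 class II pathway genes on each array, log2(signal + 16), with 2 ppm on the left and water on the right of each panel; open triangles are the 2 ppm arrays of RIN 7.2, and bars give the mean and SD of 5 arrays. The 2 ppm arrays of H2-Eb1 lie between 12.14 and 12.26, below the 5 water arrays, and the highest water array is replicate 4 in every panel.

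Of the 10 class II genes measured, 9 lay below 0 and 5 had an unadjusted p under 0.05, where 3.32% of all genes were lower at that threshold. Their median difference was -0.33, against 0.00 over all genes. The exception was Ciita, the coactivator that switches on class II genes, at 0.26 ± 0.19, and its 3 probe sets ran from -0.22 to 0.26. The mean level of the list was 9.72 to 9.85 on the 2 ppm arrays and 9.87 to 10.64 on the water arrays. Without the 3 arrays of RIN 7.2, which leaves replicates 1 and 2 of 2 ppm, the median was -0.38. Again 9 of 10 lay below 0 and 5 were at the unadjusted threshold, which 8.63% of all genes reached there in either direction. The part of RIN in the class II values was not tested. Water replicate 4 had the highest level, and without it the median was -0.19 and Cd74 and H2-Eb1 differed by -0.40 and -0.42. In RNA of a bulk tissue, fewer cells of a type and less RNA per cell cannot be told apart. Macrophage markers moved with these genes in part: 9 of 12 lay below 0, with a median of -0.06, and 3 had an unadjusted p under 0.05. These were Lyz2, lysozyme (-0.29 ± 0.11), Csf1r, the receptor of the macrophage growth factor (-0.19 ± 0.09), and Mpeg1, a pore-forming protein of phagocytes (-0.38 ± 0.18). The 3 probe sets of Csf1r disagreed, running from -0.19 to 0.08. The mean macrophage marker level was 10.33 to 10.73 on 2 ppm arrays and 10.47 to 10.88 on water arrays, again highest in water replicate 4. Without the RIN 7.2 arrays 10 of 12 lay below 0, with a median of -0.25. Without water replicate 4 the macrophage median was -0.02. With the poly-A spikes as a covariate it was -0.003, with 6 of 12 below 0 and 0 at the unadjusted threshold. Of 7 dendritic cell genes, also gathered afterwards, 6 lay below 0 with a median of -0.11. That median was -0.215 without the RIN 7.2 arrays and -0.058 without water replicate 4. Itgax, an integrin of dendritic cells, differed by -0.40 ± 0.16, and Irf8, a transcription factor of the lineage, by -0.03 ± 0.11. The ends of this list were Flt3 at -0.89, dim with a mean of 5.97 over the 24 arrays, and Cd209a at 0.20. T cell and natural killer cell markers were dim, with mean levels of 6.53 to 7.06 at 2 ppm and 6.74 to 7.58 in water, and 5 of 8 lay below 0 with a median of -0.33. The part of these cell markers in the class II values was not tested.

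Genes of DNA replication and the cell cycle had a mean level above that of every water array on the 3 arrays of RIN 7.2, and below the mean of the water arrays on the other 2 arrays of 2 ppm. Over all 5 arrays of 2 ppm, 33 of 34 measured genes of this list lay above 0, with a median of 0.40, and 10 had an unadjusted p under 0.05, where 2.71% of all genes were higher at that threshold. None passed the test. The 3 members of smallest p were Mcm6, Mcm7 and Mcm5, subunits of the helicase that opens DNA at replication origins. Promoter windows of Mcm5 (chr8:75109259-75109508, plus strand) and Mcm6 (chr1:128359706-128359955, minus strand) are shown because many replication genes carry letters bound by E2F, the transcription factor family of the entry into S phase. Both are the 250 bases before the start in GRCm38.p6, from RefSeq, and capitals mark TTTNNCGC on either strand; where matches on the 2 strands overlap, their letters form 1 run.
Mcm5: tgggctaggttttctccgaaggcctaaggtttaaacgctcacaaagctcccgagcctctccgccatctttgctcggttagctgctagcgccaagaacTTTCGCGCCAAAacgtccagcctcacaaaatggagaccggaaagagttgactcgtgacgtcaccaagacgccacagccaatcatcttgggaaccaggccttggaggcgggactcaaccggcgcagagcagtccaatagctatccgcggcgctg
Mcm6: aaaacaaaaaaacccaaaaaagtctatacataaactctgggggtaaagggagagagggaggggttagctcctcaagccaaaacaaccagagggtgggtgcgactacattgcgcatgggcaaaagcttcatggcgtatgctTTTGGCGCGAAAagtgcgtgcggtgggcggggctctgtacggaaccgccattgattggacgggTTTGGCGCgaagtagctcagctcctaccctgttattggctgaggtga
The window of Mcm5 held 2 matches, that of Mcm6 3, and 1 of the 2 windows of Mcm7 held 1, where 4.28% of all 32851 windows hold at least 1. The matches of Mcm5, 153 and 149 bases before the start, overlap on opposite strands, as do those of Mcm6 at 110 and 106 bases. The letters were chosen because replication genes are known to carry them, and a match is a description of the letters and not of binding.

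Mcm6 had levels of 9.49, 9.70, 10.15, 9.82 and 9.81 in the 2 ppm bladders and 9.19, 9.05, 9.23, 9.43 and 9.28 in the water bladders. All 5 arrays of 2 ppm lay above the water arrays, and the difference was 0.56 ± 0.15 (SE, adjusted p = 0.5327). Mcm5 had levels of 9.49, 9.41, 10.75, 10.29 and 10.10 in the 2 ppm bladders and 9.27, 9.08, 9.55, 9.48 and 9.20 in the water bladders. Replicates 3, 4 and 5 of 2 ppm, those of RIN 7.2, stood above all other arrays, whereas replicates 1 and 2 lay within the range of water, and the difference was 0.69 ± 0.22 (SE, adjusted p = 0.6813). Mcm7 ranged from 11.33 to 11.68 at 2 ppm and 11.06 to 11.35 in water and differed by 0.29 ± 0.09 (SE, adjusted p = 0.6062). Mcm5 and Mcm6 each had a dim probe set with the opposite sign, at -0.21 and -0.38, and the 4 probe sets of Mcm7 ran from 0.21 to 0.37. Gmnn, geminin, which blocks a second round of licensing, is no member of the list; it had levels of 8.80, 9.04, 9.07, 8.75 and 9.05 in the 2 ppm bladders and 8.34, 8.46, 8.42, 8.81 and 8.58 in the water bladders. Its difference of 0.42 ± 0.11 (SE, adjusted p = 0.5327) went with means of 8.96 on the RIN 7.2 arrays and 8.92 on the other 2 ppm arrays.

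**Figure D2:**
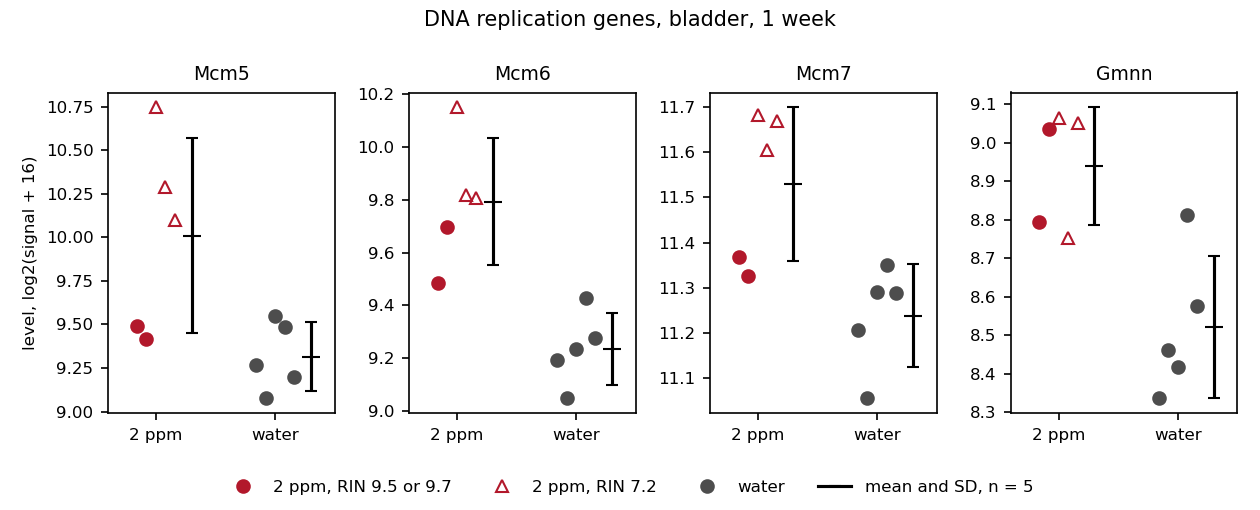
Levels of Mcm5, Mcm6, Mcm7 and Gmnn on each array, log2(signal + 16), with 2 ppm on the left and water on the right; open triangles are the 2 ppm arrays of RIN 7.2, and bars give the mean and SD of 5 arrays. The triangles of Mcm5 lie between 10.10 and 10.75, above the other 2 ppm arrays at 9.49 and 9.41.

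The mean level of the 34 cell cycle genes was 8.05, 8.09, 8.79, 8.67 and 8.68 on replicates 1 to 5 of 2 ppm and 7.87, 7.76, 8.19, 8.32 and 8.37 on replicates 1 to 5 of water. The 3 arrays of RIN 7.2 were the highest of the 10. Without them the median difference was -0.01, with 15 of 34 genes above 0 and 0 at the unadjusted threshold, and with RIN as a covariate it was 0.15. Between the RIN 7.2 arrays and the other 2 ppm arrays the list's median difference was 0.63. Among the water arrays, all with a RIN of 8.8 or more, the mean also spanned 7.76 to 8.37. The liver markers differed in the same way, by a median of 1.43 between the RIN 7.2 arrays and the other 2 ppm arrays, and with their mean as a covariate the list's median was 0.46 with 21 genes at the unadjusted threshold, where 5.81% of all genes were. With array weights the list's count was 18 and the share of all genes 10.15%, against 6.03% without weights, and leaving out 1 array gave 5 (without 2 ppm replicate 5) to 16 (without 2 ppm replicate 1 or 2). DNA repair genes included 17 of 28 above 0, with a median of 0.07. Lig1, the ligase that joins newly made DNA, differed by 0.33 ± 0.15, and Ung, which removes uracil from DNA, by 0.47 ± 0.22, with adjusted p-values of 0.8173 and 0.8196.

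Immediate early genes, which cells switch on within minutes of a stimulus or of handling, lay mostly below water. Of 28 measured, 23 were below 0, with a median of -0.25, and 8 had an unadjusted p under 0.05, all lower, where 3.32% of all genes were lower at that threshold. Against the same water arrays the list's median was -0.23 at 0.5 ppm, -0.30 at 10 ppm and -0.24 at 50 ppm. For 2 ppm against the mean of these 3 doses it was -0.055. Ccn2, a matricellular protein induced by mechanical strain and TGF-beta, had levels of 9.67, 9.92, 10.25, 9.43 and 9.55 in the 2 ppm bladders and 10.20, 10.36, 10.38, 10.79 and 11.70 in the water bladders. Water replicate 5 was highest, 1 array of 2 ppm reached the lowest water array, and the difference was -0.92 ± 0.26 (SE, adjusted p = 0.6062). Btg2, an antiproliferative gene that is also a p53 target, had levels of 11.56, 11.64, 11.37, 11.15 and 10.71 in the 2 ppm bladders and 11.86, 11.64, 11.88, 11.78 and 12.24 in the water bladders. The highest 2 ppm array and the lowest water array were equal to the second decimal, and the difference was -0.60 ± 0.20 (SE, adjusted p = 0.6946). Jun, which pairs with Fos in the transcription factor AP-1, ranged from 10.25 to 10.84 at 2 ppm and 10.63 to 11.75 in water and differed by -0.53 ± 0.18 (SE, adjusted p = 0.7184). Fos differed by -0.61 ± 0.30 (SE, adjusted p = 0.8426), and Egr1, a zinc finger factor of the same early response, by -0.46 ± 0.30 (SE, adjusted p = 0.8889), with groups that overlapped in both.

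**Figure D3:**
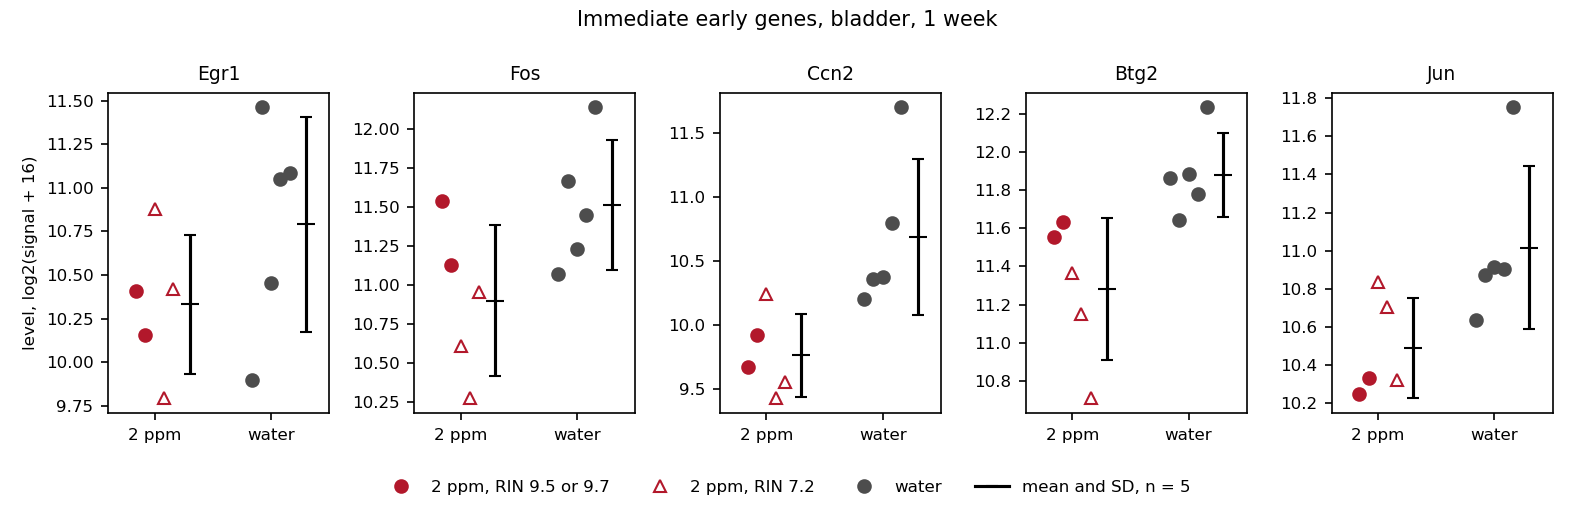
Levels of 5 immediate early genes on each array, log2(signal + 16), with 2 ppm on the left and water on the right; open triangles are the 2 ppm arrays of RIN 7.2, and bars give the mean and SD of 5 arrays. The water arrays of Btg2 lie between 11.64 and 12.24, and the highest 2 ppm array is at 11.64, while those of Egr1 span 9.90 to 11.46.

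The mean level of the early genes was 9.34 to 9.58 on the 2 ppm arrays and 9.47 to 10.26 on the water arrays, so that water was the wider group. Without the RIN 7.2 arrays the median was -0.26, with 5 of 27 genes at the unadjusted threshold, where 8.63% of all genes were in either direction. Leaving out water replicate 5 gave 4 genes and a median of -0.24, and leaving out water replicate 1 gave 13 genes and a median of -0.32. Genes known to respond to glucocorticoids were also low, with 14 of 18 below 0, a median of -0.14 and 7 lower at the unadjusted threshold (3.32% of all genes). The count was 2 of 18 without the RIN 7.2 arrays, near the 8.63% of all genes there, and 3 without water replicate 3, water replicate 5 or 2 ppm replicate 5. The glucocorticoid list's median from the same water arrays was -0.192, -0.156 and -0.085 at 0.5, 10 and 50 ppm. For 2 ppm against the mean of these doses it was 0.035. Cebpb, a transcription factor of stress and acute phase responses, ranged from 10.40 to 11.07 at 2 ppm and 11.20 to 11.47 in water and differed by -0.47 ± 0.15 (SE, adjusted p = 0.6813). Tsc22d3, the glucocorticoid-induced leucine zipper, differed by -0.49 ± 0.19, and Cebpd, a relative of Cebpb, by -0.37 ± 0.15. The 4 probe sets of Tsc22d3 ran from -0.49 to 0.38. In the circadian clock list 10 of 18 genes lay above 0, with a median of 0.07. Arntl, the positive arm of the clock, averaged 8.24 ± 0.28 at 2 ppm and 8.86 ± 0.09 in water (SD, n = 5 each), without overlap, and differed by -0.62 ± 0.22 (SE, adjusted p = 0.7434). Nr1d1, the repressor of Arntl, lay above water, at 0.39 ± 0.15, Nfil3, another repressor of clock output, differed by -0.61 ± 0.23, and Dbp, an output factor, by 0.34 ± 0.21. The time of day of each harvest is not given. In the p53 list 12 of 18 genes lay below 0 with a median of -0.09, and Cdkn1a, the p53-induced inhibitor of the cell cycle, differed by -0.25 ± 0.11 (SE, adjusted p = 0.8196). The dimmer probe set of Cdkn1a differed by 0.18. Without the RIN 7.2 arrays 9 of the 18 p53 genes lay above 0 and 9 below, with a median of 0.003. With RIN as a covariate 10 lay above 0, with a median of 0.046.

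With all arrays, the gene groups best known for arsenic had medians close to water. Of 24 NRF2 targets measured, 11 lay above 0 and 13 below, with a median of -0.01 and 1 gene at the unadjusted threshold. Without the RIN 7.2 arrays the median was 0.046 and the count again 1. With all arrays the gene at that threshold was Me1, malic enzyme, which supplies NADPH, with levels of 12.38, 12.25, 12.19, 12.32 and 12.16 in the 2 ppm bladders and 12.11, 11.78, 12.16, 11.93 and 12.06 in the water bladders. The lowest 2 ppm array and the highest water array were equal to the second decimal, and the difference was 0.25 ± 0.12 (SE, adjusted p = 0.8267). On its other probe set, with a mean of 12.03 over the 24 arrays, Me1 differed by 0.08. Hmox1, heme oxygenase, averaged 8.29 ± 0.33 at 2 ppm and 8.39 ± 0.30 in water (SD, n = 5 each) and differed by -0.10 ± 0.17 (SE, adjusted p = 0.959). The 95% interval of Nqo1, a quinone reductase, ran from -0.38 to 0.13 around -0.13, and that of Gclm, a subunit of the enzyme that starts glutathione synthesis, from -0.17 to 0.21 around 0.02. Among 15 metallothioneins and metal transporters, 11 lay above 0 with a median of 0.12 and 0 reached the unadjusted threshold. Without the RIN 7.2 arrays 3 of 14 were higher and 2 lower at that threshold, where 8.63% of all genes reached it in either direction, and the median was 0.15. Mt1 and Mt2, the metallothioneins themselves, differed by -0.17 ± 0.11 and -0.04 ± 0.12, and their intervals ran from -0.40 to 0.05 and from -0.29 to 0.20.

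Of 18 genes of arsenic uptake, methylation and efflux, 8 lay above 0 and 10 below, with a median of -0.01. As3mt, the methyltransferase that makes methylated arsenicals, averaged 8.81 ± 0.26 at 2 ppm and 8.73 ± 0.08 in water (SD, n = 5 each), a difference of 0.08 ± 0.11 (SE, adjusted p = 0.9569). Mtr, methionine synthase of the methyl donor cycle, differed by 0.28 ± 0.13, Slc2a1, a glucose transporter, by -0.18 ± 0.09, and Slc20a2, a phosphate transporter, by -0.19 ± 0.12. The second probe set of Slc20a2 differed by 0.18. Of 22 heat shock proteins and cochaperones, 13 lay above 0, with a median of 0.02. At the unadjusted threshold 3 of the 22 were lower and 1 higher, where 3.32% of all genes were lower and 2.71% higher. Hspa1a, an inducible chaperone, had levels of 10.60, 10.61, 10.64, 10.67 and 10.76 in the 2 ppm bladders and 10.87, 11.54, 10.92, 10.95 and 10.92 in the water bladders. Water replicate 2 stood apart at the top, the groups did not overlap, and the difference was -0.39 ± 0.11 (SE, adjusted p = 0.6062). Its near-identical neighbour Hspa1b differed by 0.06 ± 0.07 (SE, adjusted p = 0.9513) on its brightest probe set and by -0.17 on another, and probe sets cannot assign such near-identical transcripts with certainty. Dnajb1, a cochaperone, differed by -0.23 ± 0.09 and Hspb8, a small heat shock protein, by -0.34 ± 0.13. Another probe set of Dnajb1 differed by -0.006, and the 3 of Hspb8 ran from -0.405 to -0.068. Endoplasmic reticulum stress genes lay above 0 for 19 of 25, with a median of 0.10, and Hspa5, the main chaperone of that compartment, differed by 0.32 ± 0.16 (SE, adjusted p = 0.8567). In the cholesterol and fatty acid list 18 of 22 lay above 0, with a median of 0.10. Sqle, squalene epoxidase, ranged from 10.94 to 11.26 at 2 ppm and 10.48 to 10.85 in water and differed by 0.34 ± 0.12 (SE, adjusted p = 0.7547), without overlap. Lss and Hmgcs1, enzymes of the same route, differed by 0.28 ± 0.11 and 0.43 ± 0.21. The 3 probe sets of Lss ran from -0.20 to 0.36.

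Lists for the layers of the bladder wall also differed without the RIN 7.2 arrays. Among 28 collagen and matrix genes, 23 lay below 0 with a median of -0.08, and without the RIN 7.2 arrays 27 lay below 0 with a median of -0.37 and 16 at the unadjusted threshold, which 8.63% of all genes reached in that setting, against 6.03% with all arrays. Their mean level was 12.17 and 12.42 on replicates 1 and 2 of 2 ppm, 12.76 to 12.79 on the RIN 7.2 arrays, and 12.46 to 12.78 on the water arrays. Without 2 ppm replicate 1 alone, the median was 0.03. Fbln5, an elastic fibre protein, differed by -0.31 ± 0.11 (SE, adjusted p = 0.7626). The 14 smooth muscle markers had a median of -0.10, with -0.32 without the RIN 7.2 arrays. Leaving out 1 array moved it to between -0.16 (without water replicate 1) and -0.023 (without 2 ppm replicate 1). Myocd, the coactivator of smooth muscle genes, differed by -0.48 ± 0.21 (SE, adjusted p = 0.8173). Of 7 pericyte markers 6 lay below 0, with a median of -0.13 and -0.46 without the RIN 7.2 arrays. It was -0.265 when 2 ppm replicate 2 was left out and -0.031 when water replicate 2 was, the extremes over single arrays. Pdgfrb, the receptor of mural cells, had levels of 10.84, 11.17, 11.30, 11.36 and 11.76 in the 2 ppm bladders and 11.86, 11.62, 11.91, 11.66 and 11.94 in the water bladders. Replicate 5 of 2 ppm reached the water range, and the difference was -0.51 ± 0.13 (SE, adjusted p = 0.4697). Urothelial markers lay close to water, with a median of 0.04 in the superficial and intermediate list and 0.00 over 11 basal markers, where Krt15, a keratin of basal cells, differed by -0.22 ± 0.10 (SE, adjusted p = 0.8196). Without the RIN 7.2 arrays 16 of 17 superficial and intermediate markers lay above 0, with a median of 0.098 and 4 higher at the unadjusted threshold, against 0 with all arrays. Mast cell markers lay above 0 for 4 of 5, with a median of 0.48, and Cma1, a mast cell protease, ranged from 7.42 to 8.06 at 2 ppm and 6.95 to 7.77 in water and differed by 0.51 ± 0.16 (SE, adjusted p = 0.6813). Against the same water arrays the mast cell median was 0.59, 0.20 and 0.35 at 0.5, 10 and 50 ppm. For 2 ppm against the mean of these doses it was 0.08.

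**Figure D4:**
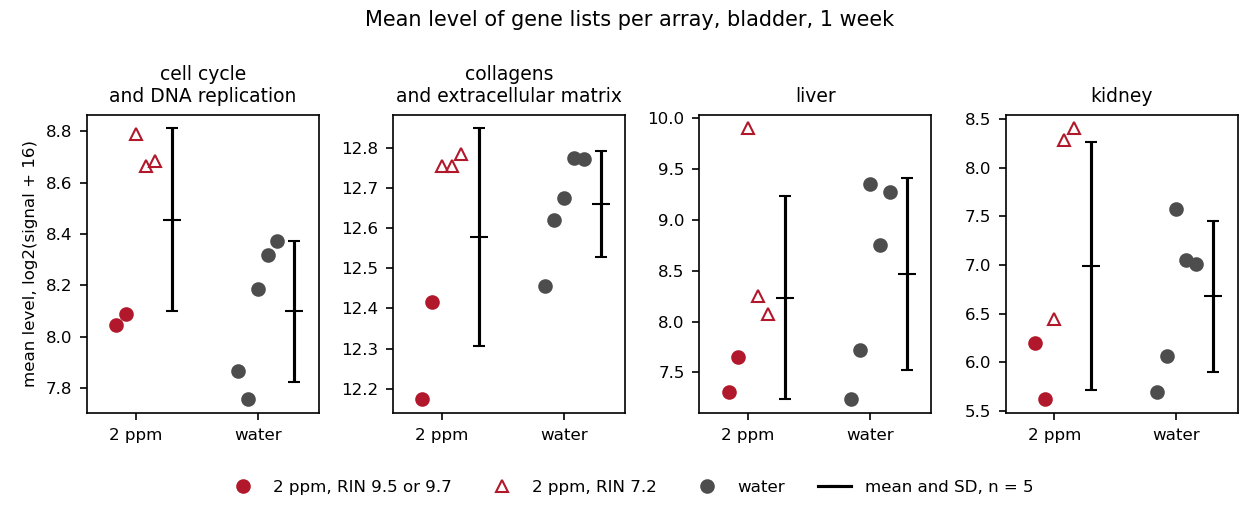
Mean level of 4 gene lists on each array, log2(signal + 16), with 2 ppm on the left and water on the right; open triangles are the 2 ppm arrays of RIN 7.2, and bars give the mean and SD of 5 arrays. The 3 triangles of the cell cycle list lie between 8.67 and 8.79, above the 7 other arrays, and kidney markers reach 8.28 and 8.41 on 2 of the triangles.

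Transcripts of liver and kidney, organs collected from the same mice, were found on several bladder arrays of both groups. The mean level of 20 liver markers spanned 7.31 to 9.90 on the 2 ppm arrays and 7.24 to 9.36 on the water arrays. Alb, albumin, had levels of 8.17, 9.48, 12.54, 9.48 and 9.33 in the 2 ppm bladders and 7.79, 9.26, 10.46, 10.32 and 11.42 in the water bladders. Replicate 3 of 2 ppm was highest, the ranges overlapped almost fully, and the difference was -0.05 ± 0.62 (SE, adjusted p = 0.997). The mean level of 5 kidney markers was highest on replicates 4 and 5 of 2 ppm, at 8.28 and 8.41, against 5.70 to 7.58 on the water arrays. On these 2 arrays Umod, uromodulin of the kidney tubule, reached 9.26 and 9.34 and Kap, a kidney androgen-regulated protein, 11.27 and 11.01, while Aqp2, a water channel of the collecting duct, stood at 5.04 and 6.76. The group differences were 0.76 ± 0.93 for Umod and 0.58 ± 0.74 for Kap. With the mean of the liver markers added to the fit, 0 genes passed the threshold and the class II median was -0.34.

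**Figure D5:**
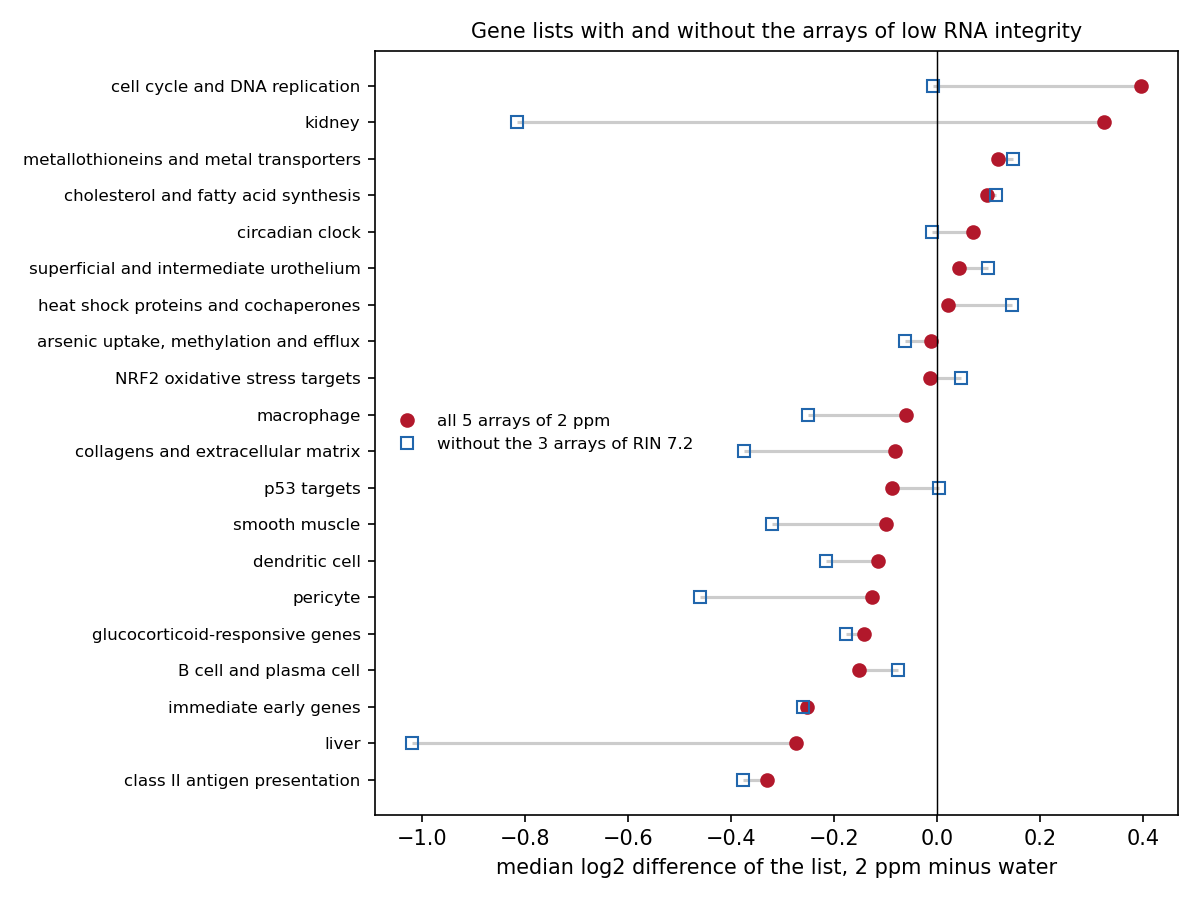
Median log2 difference of 20 gene lists, 2 ppm minus water, with all 5 arrays of 2 ppm (filled circles) and without the 3 arrays of RIN 7.2 (open squares). The class II list lies at -0.33 with all arrays and at -0.38 without those of RIN 7.2, the immediate early list at -0.25 and -0.26, and the cell cycle list at 0.40 and -0.01.

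Within 2 ppm, the 3 arrays of RIN 7.2 were set against the other 2. No gene was called (0%), the smallest adjusted p was 0.08892, and 1410 genes (10.1%) had an unadjusted p under 0.05. The 3 genes of smallest p were Exoc3l2, of the exocyst family, with a difference of 1.32 ± 0.23, Cxcl9, an interferon-gamma-induced chemokine, with 2.33 ± 0.45, and Htra3, a secreted serine protease, with 0.69 ± 0.14 (SE). Exoc3l2 had levels of 6.80, 6.47, 8.03, 7.96 and 7.87 in the 2 ppm bladders and 7.19, 7.44, 7.91, 7.70 and 7.33 in the water bladders. Cxcl9 had levels of 5.32, 4.61, 6.54, 7.52 and 7.81 in the 2 ppm bladders and 6.52, 7.16, 6.77, 7.13 and 5.30 in the water bladders. In both, the RIN 7.2 arrays stood above the other 2 ppm arrays and the water arrays overlapped the 2 ppm arrays of both kinds, and the differences between 2 ppm and water were -0.09 ± 0.24 and -0.22 ± 0.44.

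Beside the other doses of the same week, which share these water arrays, the counts of genes called against water were 4 (0.0288%) at 0.5 ppm, 0 (0%) at 2 ppm, 134 (0.964%) at 10 ppm and 61 (0.439%) at 50 ppm. At an unadjusted p under 0.05 they were 1788 (12.9%), 839 (6.03%), 2481 (17.8%) and 1650 (11.9%) at the same doses. There were 4 arrays at 0.5 ppm and 5 at each other dose. The difference of Cd74 from water was -0.26 at 0.5 ppm, -0.52 ± 0.11 at 2 ppm, -0.20 at 10 ppm and -0.16 at 50 ppm. That of Gadd45g was -0.75, -0.73, -0.98 and -0.28 at the same 4 doses, and that of Ccn2 was -0.87, -0.92, -1.09 and -0.95. The contrast of 2 ppm with the mean of the other 3 doses leaves the water arrays out, and it called 0 genes, with 572 (4.11%) at an unadjusted p under 0.05. Its 3 genes of smallest p were Matk (-1.19 ± 0.24), Slc37a2, a sugar phosphate exchanger (-0.51 ± 0.12), and Nlrp3, the sensor of an inflammasome (0.54 ± 0.13). Nlrp3 had levels of 7.24, 7.39, 7.31, 7.27 and 7.51 in the 2 ppm bladders and 6.76, 6.83, 6.94, 6.98 and 6.82 in the water bladders. The groups did not overlap, the difference from water was 0.48 ± 0.16 (SE, adjusted p = 0.6813), and the other doses differed from water by -0.23, 0.05 and 0.01 at 0.5, 10 and 50 ppm.

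After 12 weeks the same dose was compared with its own water mice, which share no array with the 1-week groups, and 2 of 14014 genes were called (0.0143%), Fos and Ccn1, both lower at 2 ppm. Ccn1, a matricellular relative of Ccn2 picked out after its values had been seen, differed by -1.19 ± 0.57 at 1 week (SE, adjusted p = 0.8268) and by -2.52 ± 0.40 at 12 weeks (SE, adjusted p = 0.007503). Fos differed by -0.61 ± 0.30 at 1 week (SE, adjusted p = 0.8426) and by -1.90 ± 0.29 at 12 weeks (SE, adjusted p = 0.005025). Cd74 differed by -0.52 at 1 week and by 0.14 at 12 weeks (adjusted p = 0.8264), and H2-Eb1 by -0.57 at 1 week and by -0.07 at 12 weeks (adjusted p = 0.9214). The test of the difference itself, the 2 ppm effect at 1 week minus that at 12 weeks, called 0 of 14641 genes (0%), with 869 (5.94%) at an unadjusted p under 0.05. For Fos this difference was 1.29 ± 0.44 (SE, adjusted p = 0.7958), and for Cd74 it was -0.66 ± 0.25 (SE, adjusted p = 0.7958). Its 3 genes of smallest p were Mlkl (0.88 ± 0.20), Psmc3ip, a recombination cofactor (0.90 ± 0.21, on a probe set other than the one used at 1 week), and Cidea, a lipid droplet protein of brown fat (-1.89 ± 0.46), with adjusted p-values of 0.463 to 0.6184. Mlkl differed from water by 0.54 at 1 week and by -0.34 at 12 weeks. Cidea differed by -0.27 at 1 week and by 1.62 at 12 weeks.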

How the data were processed

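Bladder RNA was measured on Affymetrix Mouse430_2 arrays, a 1-colour platform. RNA was extracted with Trizol and purified with a Qiagen method, per the labels' protocols. The authors deposited a linear intensity for each probe set of each array, made with GCOS 1.0, per the submitters' processing notes. Their 2% trimmed mean is 500.003 to 500.004 on every array, so arrays were already scaled. Of 45101 probe sets, 34945 have a single gene in the platform annotation. An offset of 16 was added before log2, so differences of dim genes are understated. Genes above the 40th percentile of the array on at least 4 of the 24 arrays of 1 week were kept, each by its probe set of highest mean, and fitted in R 4.3.3 by limma 3.58.1 (a mean per group, lmFit, then eBayes with trend). Adjusted p-values are Benjamini-Hochberg values of these fits unless a permutation test is named. The fit of 12 weeks used 25 arrays and that between harvests all 49. No gene was called, so named genes are the 10 of smallest p in each direction, the 3 of smallest p of each list and of each other contrast, and 13 genes fixed for arsenic, stress or tissue. Members and gene lists were chosen with earlier results of these data known, and the class II and dendritic cell lists after the differences here were seen. The steps were tested on simulated data. The number of arrays limits the precision. Alternatives were offsets, scaling, filters, weights, covariates, the replicate block and leaving out arrays. Plots used matplotlib 3.10.9 under Python 3.11.15, and data.table (version 1.17.8) read the values.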

Additional observations from a re-analysis of the deposited data

Results flagged for a closer look

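Of 228 groups of 5 values examined, 13 held an array far from the other 4 by Dixon's test, and chance flags about 1 in 20 groups. In the 2 ppm group, replicate 1 stood low in As3mt (8.36), in Mtr (7.46) and in the hybridization controls (11.67), and high in H2-Eb1 (12.26), where the group's range was narrow. Replicate 5 of 2 ppm was low in Cebpb (10.40), replicate 3 was high in Hpx, hemopexin of the liver (9.48), and replicate 4 was high in the mean of the glucocorticoid-responsive genes (10.74). In the water group, replicate 2 was high in Hspa1a (11.54), in Fv1 (5.52) and in the 3′ to 5′ ratio of the Actb control probe sets (0.300 on the log2 scale), and low in Lss (9.29). Replicate 5 of water was high in Jun (11.75), and replicate 4 was high in Ctss, cathepsin S of antigen presenting cells (11.78). Levels are log2(signal + 16).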

How the results depend on the processing

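The count of 0 genes between 2 ppm and water was 2 with array weights (Matk and Ephb3, both lower, adjusted p = 0.03369) and 0 under the other 27 settings, with 654 to 1672 genes at an unadjusted p under 0.05. Leaving out 1 array at a time gave 0 to 1 probe sets (1 without water replicate 5), 0 to 2 genes against the other doses (2 without 2 ppm replicate 1) and 0 to 2 genes by RIN (2 without 2 ppm replicate 2, 1 without replicate 5). The difference between harvests had 0 calls under 15 settings. With the replicate block, genes, probe sets, dose contrast and harvest contrast had 0 calls. Same-numbered arrays of 2 ppm and water correlated at 0.026 to 0.231, over 0.1 in 2 of 5 pairs, and 3 of 5 correlated best with their own number. Arrays of unlike number correlated at -0.166 to 0.192. Whether the numbers stand for a shared factor was not tested, and the main fit leaves them out. Of 2268 values of 88 genes under the alternatives, 41 reversed, all of differences without a call. Without the RIN 7.2 arrays these were Hmox1 (0.17), Nqo1 (0.061), Mt2 (0.11), As3mt (-0.061), Hspa1b (-0.002), Umod (-1.27), Kap (-1.08) and Aqp2 (0.033). With RIN as a covariate they were Hmox1 (0.088), Mt2 (0.080), As3mt (-0.037), Umod (-0.91) and Kap (-0.77). With array weights they were Exoc3l2 (0.054), Cxcl9 (0.057), Gclm (-0.013) and Alb (0.22). With poly-A spikes as a covariate they were Gclm (-0.007) and Alb (0.27), and Alb was 0.029 with the 3′ to 5′ ratio and 0.32 with the liver marker mean. Hspa1b was -0.17 in the 10 arrays alone and Psmc3ip 0.47 in all 49, each on another probe set. Leaving out 1 array gave ranges of -0.73 to 0.36 for Alb, -0.58 to 0.22 for Cxcl9, -0.24 to 0.15 for Exoc3l2, -0.04 to 0.081 for Gclm, -0.23 to 0.02 for Hmox1, -0.13 to 0.044 for Mt2 and -0.19 to 0.005 for Psmc3ip. Medians of 20 gene lists under the same alternatives, chosen after seeing the data, moved beyond the spread between arrays in 24 of 520 values, 9 of them of the pericyte list. The causes were not tested.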

Other observations

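Housekeeping groups lay close to water, and no gene of the lists below passed the test. Of 31 genes of oxidative phosphorylation 23 lay below 0, with a median of -0.04, and of 26 proteasome genes 18 lay below 0, with a median of -0.02, and neither list had a gene at an unadjusted p under 0.05. Cytosolic ribosomal protein genes had a median of -0.05 over 19 genes, and splicing factors one of 0.03 over 37. Of 20 interferon response genes 14 lay above 0, with a median of 0.06, while inflammatory genes of the NF-kB pathway had a median of -0.04 over 18. Of 23 genes of hypoxia and glycolysis 15 lay below 0, with a median of -0.03. Targets of ATF4, the factor of the amino acid response, had a median of 0.07 over 19 genes. B cell and plasma cell markers had a median of -0.15 over 8 genes, of which 3 lay above 0 and 5 below. The member of smallest p, Pax5, a transcription factor of B cells, differed by 0.95 ± 0.35 (SE, adjusted p = 0.7626). It was dim, with a mean of 5.88 over the 24 arrays, and its other probe set differed by 0.20. The next members by p, Tnfrsf17 and Mzb1, differed by -0.56 and -0.42. Outside the list, the immunoglobulin genes Ighm, Igkv8-30 and Iglv1 differed by -1.42 ± 0.60, -1.21 ± 0.63 and -1.12 ± 0.76 (SE, adjusted p = 0.8173 to 0.9039). These genes were picked out after their values had been seen. Fat cell markers had a mean level of 10.15 to 12.05 on the 2 ppm arrays and 10.17 to 11.11 on the water arrays.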
